A study of Mus musculus with 16 samples.

Results

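Panobinostat, a small-molecule inhibitor of histone deacetylases, was given alone to mice carrying human breast tumours, and the mouse genes of whole tumours were compared with those of vehicle-treated tumours. The comparison covered 8 of the 16 libraries of the study, which were the 4 labelled panobinostat alone and the 4 labelled vehicle, and it used every mouse gene symbol with a numeric value in all 16 columns. That left 23354 symbols, of which 15610 passed the filter on low counts and were tested. Each tumour grew from AU565(pv) cells, a HER2-positive human breast cancer line, placed in the mammary fat pad of a SCID mouse. SCID hosts lack mature T and B lymphocytes and keep innate immune cells.

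Dosing began at a tumour size of 20 to 25 mm2 and was intraperitoneal in every group. Panobinostat mice received the drug at 15 mg/kg on days 0 and 1 with PBS on day 0, and vehicle mice received D5W on days 0 and 1 with PBS on day 0. A second pair of groups is used below for values set side by side. Combination mice received panobinostat at 15 mg/kg on days 0 and 1 together with trastuzumab, an antibody against HER2, at 10 mg/kg, and trastuzumab mice received the antibody at 10 mg/kg with D5W on days 0 and 1. The labels place trastuzumab on day 0 in one field and on day 1 in another. All tumours were harvested on day 2, and each of the 4 groups held 4 mice.

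Histone deacetylases remove acetyl groups from histones and from other proteins, and their inhibition changes which genes can be transcribed. In many cell types it can switch on genes that are otherwise restricted to other lineages, among them neuronal and secretory genes kept silent by the REST repressor, which recruits these enzymes. Interferons act on most cells of a tissue through STAT and IRF factors, which bind short promoter elements and turn on antiviral and antigen presentation genes. Immediate early genes such as Fos and Egr1 are transcribed within minutes of growth factor or stress signals.

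Counts were made for mouse genes, while the tumour cells are human. The share of human reads counted at mouse genes was not measured. The mouse symbol Erbb2, the gene of HER2, averaged 171 ± 26.5 CPM in panobinostat and 150.0 ± 46.2 CPM in vehicle tumours, and the epithelial keratin gene Krt8 382 ± 46.1 and 399 ± 46.7 CPM (SD, n = 4 each). In whole tumours, fewer cells of a type and less RNA per cell cannot be told apart. Marker lists of stromal cells were present in every library. Their summed levels were 19700 to 31000 CPM in panobinostat and 25200 to 35600 CPM in vehicle tumours for fibroblast and collagen genes, and 6260 to 6860 against 6690 to 9090 CPM for macrophage genes. Of 16 T cell and 12 B cell genes listed, 9 and 4 passed the filter on low counts. CPM here is the count scaled to the library's TMM-adjusted total, with no correction for gene length.

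Total counts were 5485330 to 6267514 in panobinostat libraries and 4989001 to 6650009 in vehicle libraries. The means, 5820239 ± 385315 and 5999016 ± 793452 (SD, n = 4 each), lay closer together than the libraries within a group (exact two-sided permutation p = 0.657; the smallest p that 4 against 4 allows is 0.0286). Certain libraries stood apart in single tissues. Basal epithelial and keratinocyte genes summed to 885 CPM in vehicle mouse 21, against 189 to 219 CPM in panobinostat mice and 161 to 215 CPM in the other vehicle mice. Erythroid genes summed to 1120 CPM in vehicle mouse 29, against 137 to 205 CPM in panobinostat mice and 311 to 475 CPM in the other vehicle mice. Adipocyte genes spread over 4860 to 31000 CPM in panobinostat and 5590 to 22700 CPM in vehicle mice.

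Panobinostat changed 30 of the 15610 genes (0.192% called), with 22 higher (0.141%) and 8 lower (0.0512%) at an adjusted p under 0.05 by edgeR's quasi-likelihood test with Benjamini-Hochberg adjustment. Below, a gene is called by that test unless DESeq2 is named. The increases included secretory and neuronal genes such as Vgf and interferon-inducible genes such as Ifit1. The decreases included 3 immediate early genes, the matrix gene Smoc2 and the chemokine receptor gene Cxcr4. Log2 changes of the higher genes ran from 0.56 to 3.02 with a median of 1.24, and those of the lower genes from -1.28 to -0.58 with a median of -0.82. The median over all genes was 0.01. In all 30 genes the 4 panobinostat values lay wholly on 1 side of the 4 vehicle values, which held for 3.26% of all genes in the higher and 1.87% in the lower direction.

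The evidence was uneven over the 30. Smoc2, Vgf and Gm5150 had adjusted p under 0.01, and the other 27 lay between 0.03 and 0.0488. Another 33 genes, 25 higher and 8 lower, had adjusted p from 0.05 to 0.10. Without vehicle mouse 3 or 21 or panobinostat mouse 4 or 7 only those 3 genes were called. The count was 5 without vehicle mouse 6 or 29, 6 without panobinostat mouse 8 and 12 without panobinostat mouse 13. No called gene changed sign in these 8 fits, and 16 of the 30 were called in none of them.

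**Figure D1:**
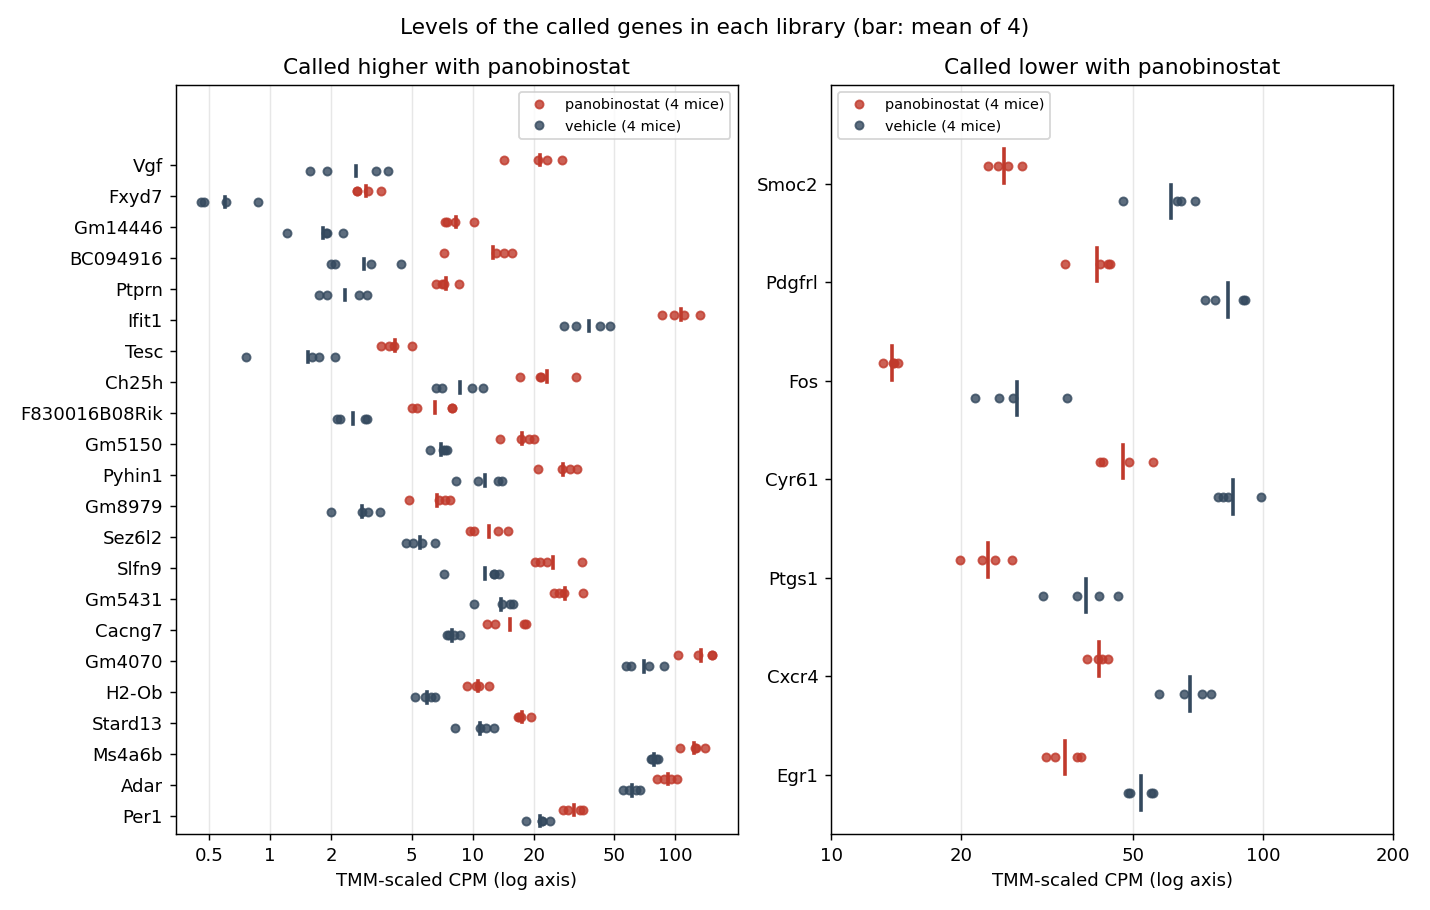
TMM-scaled CPM (log axis) of 29 of the 30 called genes in each panobinostat mouse (red) and each vehicle mouse (dark blue), with a bar at the mean of 4. The groups do not overlap for any of them, and the separation is widest for Vgf, at 14.3 to 27.7 CPM with panobinostat and 1.58 to 3.82 CPM with vehicle.

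Genes of regulated secretion and of neurons included the steepest increase. Vgf, which encodes a neuropeptide precursor stored in dense core granules, stood at 27.7, 21.1, 23.2 and 14.3 CPM in panobinostat mice 4, 7, 8 and 13 and at 3.82, 1.58, 1.91 and 3.35 CPM in vehicle mice 3, 6, 21 and 29; values below keep this order of mice. Every panobinostat tumour was above every vehicle tumour by more than 3 times. The log2 change was 3.02 (SE 0.36, adjusted p = 0.00163), an 8.13-fold rise. Ptprn, a transmembrane protein of dense core granule membranes known as an islet autoantigen, measured 6.62, 7.21, 8.58 and 7.08 CPM with panobinostat against 3.02, 1.74, 1.91 and 2.74 CPM with vehicle. The lowest panobinostat tumour exceeded the highest vehicle tumour by over 2 times, and the log2 change was 1.65 (SE 0.31, adjusted p = 0.0398). Ptprn shares exon sequence with the opposite-strand gene Gm28294, and the library kit does not mark strand.

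No other granule gene measured was called. Of 22 dense core granule genes listed, 8 were tested, Vgf and Ptprn rose, and the list's median log2 change was 0.28. Pam, the enzyme that amidates peptide hormones in granules, averaged 118 ± 14.2 CPM with panobinostat and 125 ± 7.77 CPM with vehicle (SD, n = 4 each; log2 change -0.09, adjusted p = 0.929). Among 17 tested genes of synaptic vesicle release none was called, although 15 were positive, the median was 0.34, and 7 were higher in every panobinostat tumour than in any vehicle tumour (3.26% of all genes). Snap25, a SNARE protein of vesicle fusion, had the largest difference, with 3.04, 3.52, 6.08 and 3.22 CPM in panobinostat and 1.81, 1.11, 1.56 and 0.609 CPM in vehicle tumours. Its log2 change of 1.66 (SE 0.38) missed the threshold at an adjusted p of 0.105.

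Membrane transport genes of excitable cells were among the called genes too. Fxyd7, a brain-enriched regulator of the sodium pump, stood at 3.04, 2.68, 2.68 and 3.54 CPM in panobinostat tumours and at 0.604, 0.474, 0.868 and 0.457 CPM in vehicle tumours. Its counts were low, but the groups were far apart, with a log2 change of 2.29 (SE 0.40, adjusted p = 0.0366). It was the single called gene of 13 sodium pump genes tested, whose median was -0.08. Cacng7, an auxiliary subunit of AMPA-type glutamate receptors, averaged 15.2 ± 3.39 CPM with panobinostat and 7.95 ± 0.55 CPM with vehicle (log2 change 0.94, SE 0.17, adjusted p = 0.038). Sez6l2, a neuronal surface protein gene, averaged 12 ± 2.53 and 5.48 ± 0.81 CPM in panobinostat and vehicle tumours (log2 change 1.12, adjusted p = 0.0366), and it shares exons with the predicted gene Gm21984. None of 35 voltage-gated channel genes was called (median 0.20).

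Schwann cell and neuronal cytoskeleton genes are given here as markers of nerve tissue in the sample. Of 12 Schwann cell genes tested, none was called, the median log2 change was 0.05, and the summed level was 220 to 322 CPM in panobinostat and 266 to 396 CPM in vehicle tumours. Of 13 neuronal cytoskeleton genes, none was called and the median was 0.25. Their summed level was 648 to 825 CPM with panobinostat and 633 to 724 CPM with vehicle. Summed synaptic vesicle release genes overlapped between groups, at 323 to 388 CPM with panobinostat and 200 to 330 CPM with vehicle. Vehicle mouse 6 was the lowest of the 8 libraries for that sum and for Erbb2 (85.4 CPM). The parts of nerve content and of human reads in the secretory and neuronal gene values were not tested. The 10 assigned symbols next to the threshold, with adjusted p from 0.0517 to 0.0567, were Dner, a Notch ligand (log2 change 1.87), the adaptor Cnksr2 (1.69), the membrane protein gene Tmem59l (1.77), the calcium sensor Syt5 (1.61), Fcgr1, Ms4a4c, Pf4, Ctsk, Mx1 and Dpep2.

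Interferon-inducible genes formed the second group of increases. Ifit1, an antiviral protein that binds RNA lacking the host cap methylation, stood at 110.0, 133, 98.5 and 85.8 CPM in panobinostat tumours and at 32.2, 47.5, 28.1 and 42.6 CPM in vehicle tumours. The lowest panobinostat value was well above the highest vehicle value, and the log2 change was 1.50 (SE 0.30, adjusted p = 0.0488). Gm14446, which RefSeq lists as Ifit1bl1, a relative of Ifit1 in the same cluster on chromosome 19, had 7.51, 10.1, 7.33 and 8.21 CPM with panobinostat against 1.21, 1.89, 1.91 and 2.28 CPM with vehicle. All panobinostat tumours were over 3 times any vehicle tumour (log2 change 2.15, SE 0.35, adjusted p = 0.0366). Close copies in this family can share reads, so the split between the members is uncertain.

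The promoters of these genes are shown because they carry the element through which interferon-activated factors act. RefSeq windows (GRCm38.p6, from 250 bases before to 50 after the annotated start) were available for 19 of the 30 called genes. The core of the interferon-stimulated response element (ISRE), searched on both strands as 2 copies of GAAA with any 2 bases between them, is in capitals in the lines for Ifit1, Gm14446, Slfn9 and Cxcl10. Slfn9 is a called gene of the Schlafen family, and Cxcl10 is an interferon-induced chemokine gene. Windows are written 5′ to 3′ on the gene's own strand.
Ifit1 (chr19:34640639-34640938, plus strand): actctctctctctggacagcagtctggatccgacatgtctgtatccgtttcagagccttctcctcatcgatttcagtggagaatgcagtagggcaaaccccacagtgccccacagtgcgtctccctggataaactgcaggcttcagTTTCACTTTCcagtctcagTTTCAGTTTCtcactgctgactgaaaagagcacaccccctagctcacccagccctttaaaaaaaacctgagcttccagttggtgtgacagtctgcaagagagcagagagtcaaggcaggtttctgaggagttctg
Gm14446 (chr19:34601919-34602218, minus strand): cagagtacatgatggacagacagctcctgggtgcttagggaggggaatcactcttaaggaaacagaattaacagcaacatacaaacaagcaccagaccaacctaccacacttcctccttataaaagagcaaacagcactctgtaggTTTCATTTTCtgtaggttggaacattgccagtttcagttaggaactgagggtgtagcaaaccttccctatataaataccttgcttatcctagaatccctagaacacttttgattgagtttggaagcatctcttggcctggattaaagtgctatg
Slfn9 (chr11:82991781-82992080, minus strand): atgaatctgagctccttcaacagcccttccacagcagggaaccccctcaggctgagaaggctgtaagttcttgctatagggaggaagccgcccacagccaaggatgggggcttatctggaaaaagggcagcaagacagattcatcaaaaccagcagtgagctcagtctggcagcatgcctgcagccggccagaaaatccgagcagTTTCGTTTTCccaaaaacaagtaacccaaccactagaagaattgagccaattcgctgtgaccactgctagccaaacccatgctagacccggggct
Cxcl10 (chr5:92348840-92349139, minus strand): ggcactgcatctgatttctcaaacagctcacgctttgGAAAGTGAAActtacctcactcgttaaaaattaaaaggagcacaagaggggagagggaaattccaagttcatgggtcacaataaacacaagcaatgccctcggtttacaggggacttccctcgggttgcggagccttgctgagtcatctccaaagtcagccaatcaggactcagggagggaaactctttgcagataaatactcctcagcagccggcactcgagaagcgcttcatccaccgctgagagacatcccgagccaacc

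With the start counted as 0, the first base of the ISRE core lay at -104 and -85 in Ifit1, at -104 in Gm14446, at -45 in Slfn9 and at -213 in Cxcl10. In another Gm14446 window, not shown, it lay at -23. The core was found in 4 of 15 called higher genes with a window (Ifit1, Gm14446, Slfn9 and Gm5150), in none of the 4 called lower genes with a window, and in 3.99% of the 27025 symbols with a window. The windows of the called genes Adar, Pyhin1, H2-Ob, Ms4a6b and Gm5431 did not hold it. In the list of type I interferon response genes it was found in 12 of 23 (52.2%), and among genes induced by interferon gamma in 11 of 15 (73.3%). Immediate early genes held it in 1 of 20 and cell cycle genes in 1 of 31. A match is a run of letters and not a measured binding site.

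Other called genes of innate immunity rose less steeply. Slfn9 stood at 21.5, 23.3, 34.5 and 20.4 CPM in panobinostat and at 13.5, 7.26, 12.7 and 12.8 CPM in vehicle tumours (log2 change 1.11, SE 0.19, adjusted p = 0.0366). Pyhin1, which RefSeq lists as Ifi209, a gene of the family of nuclear DNA sensors, averaged 28.0 ± 5.08 CPM with panobinostat and 11.5 ± 2.63 CPM with vehicle (log2 change 1.27, adjusted p = 0.0448). Adar, the enzyme that edits adenosine to inosine in double-stranded RNA and has an interferon-inducible form, averaged 91.6 ± 8.74 and 61.4 ± 5.05 CPM in panobinostat and vehicle tumours (log2 change 0.58, SE 0.11, adjusted p = 0.0388). Its exons overlap Chrnb2 on the opposite strand. H2-Ob, which tempers peptide loading of MHC class II molecules, averaged 10.6 ± 1.13 CPM with panobinostat and 5.96 ± 0.577 CPM with vehicle (log2 change 0.83, adjusted p = 0.0443). Ms4a6b, a tetraspan membrane protein gene of leukocytes, averaged 124 ± 14.5 and 78.8 ± 2.97 CPM in panobinostat and vehicle tumours (log2 change 0.66, adjusted p = 0.0366).

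All 7 called genes with a predicted or clone symbol rose. Gm5150 was the most stable of them, with 20.0, 17.4, 19 and 13.7 CPM in panobinostat and 7.45, 6.16, 7.11 and 7.3 CPM in vehicle tumours. The vehicle values were nearly equal and all lay below the panobinostat values (log2 change 1.32, SE 0.18, adjusted p = 0.00566). RefSeq gives Ifgga4 as a synonym of F830016B08Rik, Irgb9b8 of Gm5431 and VLIG-1 of Gm4070, the names of GTPase families in which members resemble each other closely. Their log2 changes were 1.34, 1.06 and 0.93. Gm8979 (1.21) is annotated as a pseudogene, and BC094916 (2.07) was matched to no entry of the annotation used here. Reads of these families can be divided between copies, so their single values are uncertain.

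Among type I interferon response genes every difference was positive, although Ifit1 alone passed the threshold. The log2 change was above 0 in 32 of 32, against 52.5% of all genes, the median was 0.87 against 0.01, and in 28 of 32 the panobinostat tumours lay above all vehicle tumours (3.26% of all genes). The summed level was 3320, 3730, 2940 and 2750 CPM in panobinostat tumours and 1540, 2090, 1260 and 1950 CPM in vehicle tumours. The groups did not overlap. Mx1, a GTPase that blocks influenza viruses, averaged 62.5 ± 17.9 CPM with panobinostat and 20.5 ± 6.30 CPM with vehicle, the largest difference of the list, and missed the threshold (log2 change 1.60, SE 0.33, adjusted p = 0.0555). The smallest was that of Irf9, the DNA-binding subunit of the interferon-activated complex ISGF3, at 0.36 (adjusted p = 0.526).

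Genes induced by interferon gamma also had positive differences throughout. All 23 were above 0 with a median of 1.02, 19 did not overlap between groups (3.26% of all genes), and none was called. Summed levels were 1570, 1550, 1190 and 1260 CPM in panobinostat and 663, 872, 561 and 773 CPM in vehicle tumours. Cxcl10 stood at 54.8, 48.0, 31.3 and 34.6 CPM in panobinostat and at 9.26, 10.1, 6.25 and 14.6 CPM in vehicle tumours. The groups were far apart, with a log2 change of 2.06 (SE 0.44) and an adjusted p of 0.0649. Gbp9, a guanylate-binding protein gene of cell-autonomous immunity, averaged 37.7 ± 6.16 CPM with panobinostat and 18.6 ± 0.929 CPM with vehicle (log2 change 1.02, adjusted p = 0.0649). The largest log2 change of the list, 2.43 for the tryptophan-degrading enzyme Ido1, rested on panobinostat mouse 7, with 1.07, 46.1, 1.07 and 8.53 CPM in panobinostat and 2.01, 3, 1.56 and 3.80 CPM in vehicle tumours. Without that mouse it was 0.46.

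DESeq2, which called 154 of all genes (0.987%), called 14 of the 32 type I genes and 12 of the 23 interferon gamma genes. By edgeR, none of either list was called without any 1 of the 8 libraries. Both list medians stayed positive without each of the 8 libraries, at 0.75 to 1.00 and 0.87 to 1.11. Interferon sources and sensors, MHC class I genes and MHC class II genes differed less. Their medians were 0.03 over 17 genes, 0.15 over 20 and 0.18 over 10, with Adar and H2-Ob as the called genes. Tap1, which feeds peptides to MHC class I, averaged 85.2 ± 13.6 CPM with panobinostat and 53.2 ± 7.57 CPM with vehicle (log2 change 0.68, adjusted p = 0.313). The class I heavy chain gene H2-D1 averaged 1240 ± 231 and 1350 ± 249 CPM in panobinostat and vehicle tumours (adjusted p = 0.95).

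**Figure D2:**
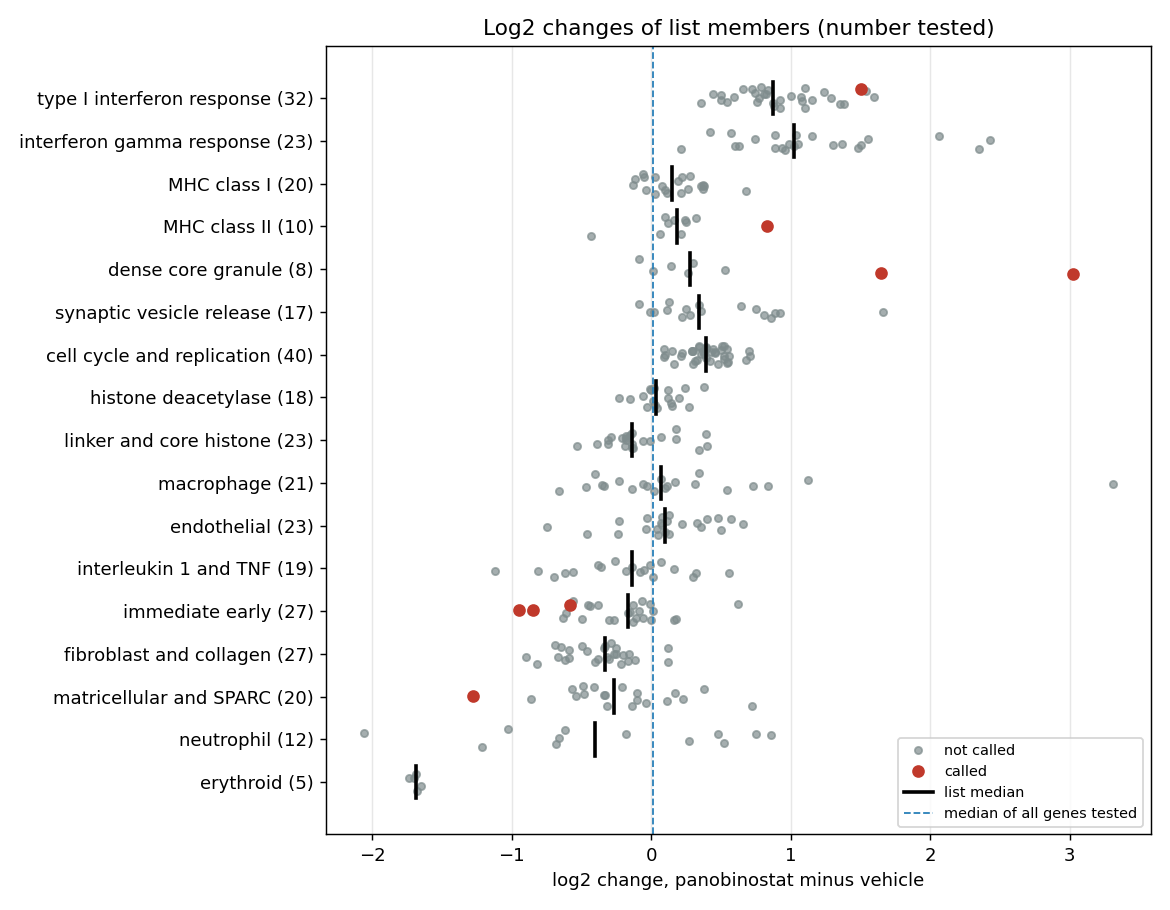
Log2 changes, panobinostat minus vehicle, of the tested members of 17 gene lists (number tested in brackets), with called genes in red, a black bar at each list's median and a dashed line at the median of all genes, 0.01. The lists of type I interferon and interferon gamma response genes lie wholly to the right of 0, as do the cell cycle genes, and the erythroid genes lie wholly to the left.

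The macrophage and natural killer cell lists held no gene called by edgeR. DESeq2 called 1 gene higher in each, against 104 of all 15610 genes. Macrophage genes had a median of 0.07 over 21 genes, which ran from -0.05 to 0.09 with 1 library left out. Of the 21, 12 were positive and 9 negative. At an unadjusted edgeR p under 0.05, 4 were higher and 3 lower. Fcgr1, the high-affinity IgG receptor of macrophages, measured 168, 185, 158 and 136 CPM in panobinostat tumours and 98.2, 105, 97.9 and 89.0 CPM in vehicle tumours. These groups did not overlap, and the adjusted p was 0.0517 (log2 change 0.73, SE 0.15). The far point of the macrophage list, Marco, a scavenger receptor gene, had 20.1 CPM in panobinostat mouse 13 and 1.83 CPM in vehicle mouse 29 and was at 0 in the other 6 libraries. The 15 natural killer cell genes had a median of 0.33, which turned to -0.17 without panobinostat mouse 13, with 6 of 15 positive. The receptor gene Klrk1 averaged 23.5 ± 6.44 CPM with panobinostat and 8.60 ± 1.88 CPM with vehicle (log2 change 1.44, adjusted p = 0.119). Summed natural killer cell genes, Klrk1 included, were 54.7 to 81.0 CPM in panobinostat and 29.5 to 53.4 CPM in vehicle tumours. Ncr1, another receptor gene of the list, averaged 5.03 ± 3.15 CPM with panobinostat and 4.59 ± 0.973 CPM with vehicle (log2 change 0.14, adjusted p = 0.984). The part of natural killer cells in the interferon gene values was not tested.

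The remaining genes that rose had roles in lipid, clock and signalling pathways. Ch25h, which makes the antiviral oxysterol 25-hydroxycholesterol, stood at 32.2, 21.6, 21.8 and 17.1 CPM in panobinostat tumours and at 7.04, 11.2, 6.59 and 9.89 CPM in vehicle tumours. All panobinostat values were above all vehicle values (log2 change 1.40, SE 0.26, adjusted p = 0.0412). It overlaps the opposite-strand gene Gm26902 and was the 1 gene with a cyclic AMP response element (CRE) among the 19 called genes that had a window. The element was searched on both strands as TGACGTCA and found in 2.03% of all symbols. The element is in capitals in its window and begins at -61.
Ch25h (chr19:34475099-34475398, minus strand): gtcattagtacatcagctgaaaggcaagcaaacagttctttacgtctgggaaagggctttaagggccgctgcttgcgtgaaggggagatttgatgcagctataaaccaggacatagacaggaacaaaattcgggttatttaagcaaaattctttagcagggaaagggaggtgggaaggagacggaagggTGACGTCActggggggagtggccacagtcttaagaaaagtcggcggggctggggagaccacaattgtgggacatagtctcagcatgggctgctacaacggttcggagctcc

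Among the 22 tested genes of the sterol list Ch25h was the only call, and the median was -0.27. Per1, a repressor of the circadian clock, stood at 35.2, 34.0, 29.7 and 28.0 CPM with panobinostat against 24, 18.3, 21.9 and 22.1 CPM with vehicle (log2 change 0.56, SE 0.11, adjusted p = 0.0417). Among the 18 clock genes tested it was the only call, and the median was -0.07. Bhlhe40, a clock-linked repressor, averaged 48.8 ± 4.32 CPM with panobinostat and 67.6 ± 4.26 CPM with vehicle (log2 change -0.47, adjusted p = 0.0695). Tesc, a calcineurin B homologue, rose by 1.41 (SE 0.27, adjusted p = 0.0417) on the log2 scale, with 3.52 to 5.01 CPM in panobinostat and 0.761 to 2.08 CPM in vehicle tumours. Stard13, a GTPase-activating protein gene, rose by 0.69 (SE 0.13, adjusted p = 0.0417), with 16.8 to 19.3 against 8.21 to 12.8 CPM.

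Among matrix and stromal genes Smoc2 and Pdgfrl fell. Smoc2, a secreted calcium-binding protein of the SPARC family found in basement membranes, stood at 25.6, 27.7, 23.1 and 24.3 CPM in panobinostat tumours and at 64.4, 69.6, 63.3 and 47.3 CPM in vehicle tumours. Panobinostat values were nearly equal and all far below the vehicle values. The log2 change was -1.28 (SE 0.15, adjusted p = 0.00163), a fold of 0.412. Pdgfrl, a secreted relative of the receptors for platelet-derived growth factor, had 43.8, 41.9, 44.2 and 34.8 CPM with panobinostat against 89.8, 77.4, 90.9 and 73.3 CPM with vehicle (log2 change -1.01, SE 0.19, adjusted p = 0.0417). Its groups did not overlap. Ctsk, a collagen-degrading cathepsin, measured 80.7, 118, 108 and 102 CPM with panobinostat against 246, 312, 278 and 163 CPM with vehicle, and its log2 change (-1.29, SE 0.26) missed the threshold at an adjusted p of 0.0555.

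Around these genes, the fibroblast and matricellular lists held no further call by edgeR. DESeq2 called 1 fibroblast and collagen gene and 2 matricellular genes lower, against 50 of all 15610 genes. Of 27 fibroblast and collagen genes, 25 were negative, the median was -0.33, and 3 were lower in all panobinostat tumours than in any vehicle tumour (1.87% of all genes). Eln, the elastin gene, averaged 226 ± 65.1 CPM with panobinostat and 422 ± 74.5 CPM with vehicle (log2 change -0.90, adjusted p = 0.282), and Fn1, the fibronectin gene, 2090 ± 654 and 1920 ± 332 CPM (0.12, adjusted p = 0.958). The list's summed level overlapped between groups, at 19800, 31000, 24200 and 19700 CPM in panobinostat and 30200, 35600, 33000 and 25200 CPM in vehicle tumours. Its part in the Smoc2 and Pdgfrl values was not tested. Among 20 matricellular and SPARC family genes, Smoc2 fell, 15 were negative and the median was -0.27.

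Of 27 immediate early genes 3 fell (0.0512% of all genes) and none rose. None of the 3 was called with any 1 of the 8 libraries left out, and the other settings called 0 to 6 of the list lower. Fos, a subunit of the AP-1 transcription factor, stood at 13.2, 13.9, 14.3 and 14 CPM in panobinostat tumours and at 26.4, 35.1, 24.5 and 21.5 CPM in vehicle tumours. The 4 panobinostat values were nearly equal, and all were lower (log2 change -0.95, SE 0.17, adjusted p = 0.038). Egr1, a zinc finger transcription factor, measured 37.9, 31.5, 37.0 and 33.0 CPM with panobinostat against 48.7, 55.7, 49.3 and 54.9 CPM with vehicle (log2 change -0.58, SE 0.10, adjusted p = 0.0366). Cyr61, listed by RefSeq as Ccn1, a secreted matricellular protein and a target of YAP and serum response factor, had 42.0, 49.0, 55.6 and 42.5 CPM with panobinostat against 82.7, 98.8, 78.8 and 80.8 CPM with vehicle. Neither Egr1 nor Cyr61 overlapped between groups, and Cyr61 changed by -0.85 (SE 0.15, adjusted p = 0.038).

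In the whole list 23 of 27 were negative, the median was -0.17, and 8 were lower in all panobinostat tumours than in any vehicle tumour (1.87% of all genes). Summed levels were 1110, 1050, 1080 and 971 CPM in panobinostat and 1290, 1410, 1200 and 1360 CPM in vehicle tumours, with no overlap. Fosl1, an AP-1 subunit, had the largest positive difference, with 2.78 ± 0.39 against 1.85 ± 0.828 CPM, but the groups overlapped (adjusted p = 0.672). Of 13 MAP kinase feedback genes, which such signals also induce, none was called and the median was -0.05. Immediate early genes also respond to tissue handling, and no label records the time to lysis.

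Cxcr4 and Ptgs1 also fell. Cxcr4, the receptor for the chemokine Cxcl12, stood at 39.0, 42.3, 43.8 and 41.5 CPM in panobinostat tumours and at 75.7, 57.3, 72.2 and 65.6 CPM in vehicle tumours. Panobinostat values were tightly grouped and all below the vehicle values (log2 change -0.70, SE 0.12, adjusted p = 0.0366). Ptgs1, the constitutive cyclooxygenase, averaged 23.1 ± 2.66 CPM with panobinostat and 38.9 ± 6.51 CPM with vehicle (log2 change -0.75, adjusted p = 0.0366) and was the only call of 21 prostanoid genes (median -0.13).

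Among proliferation genes every difference was positive and none passed the threshold. The log2 change was above 0 in 40 of 40 cell cycle and replication genes (52.5% of all genes), the median was 0.39, and 11 were higher in every panobinostat tumour than in any vehicle tumour (3.26% of all genes). Mcm5, a subunit of the replicative helicase, stood at 31.3, 35.6, 46.1 and 33.2 CPM with panobinostat against 26.4, 23.8, 25.5 and 26.0 CPM with vehicle (log2 change 0.52, SE 0.13, adjusted p = 0.119). The summed level overlapped by little, at 1560, 1310, 1720 and 1270 CPM in panobinostat and 1270, 905, 1260 and 1080 CPM in vehicle tumours. Without each library in turn the median was 0.29 to 0.46. These genes are conserved between mouse and human, and the part of human reads in them was not tested.

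**Figure D3:**
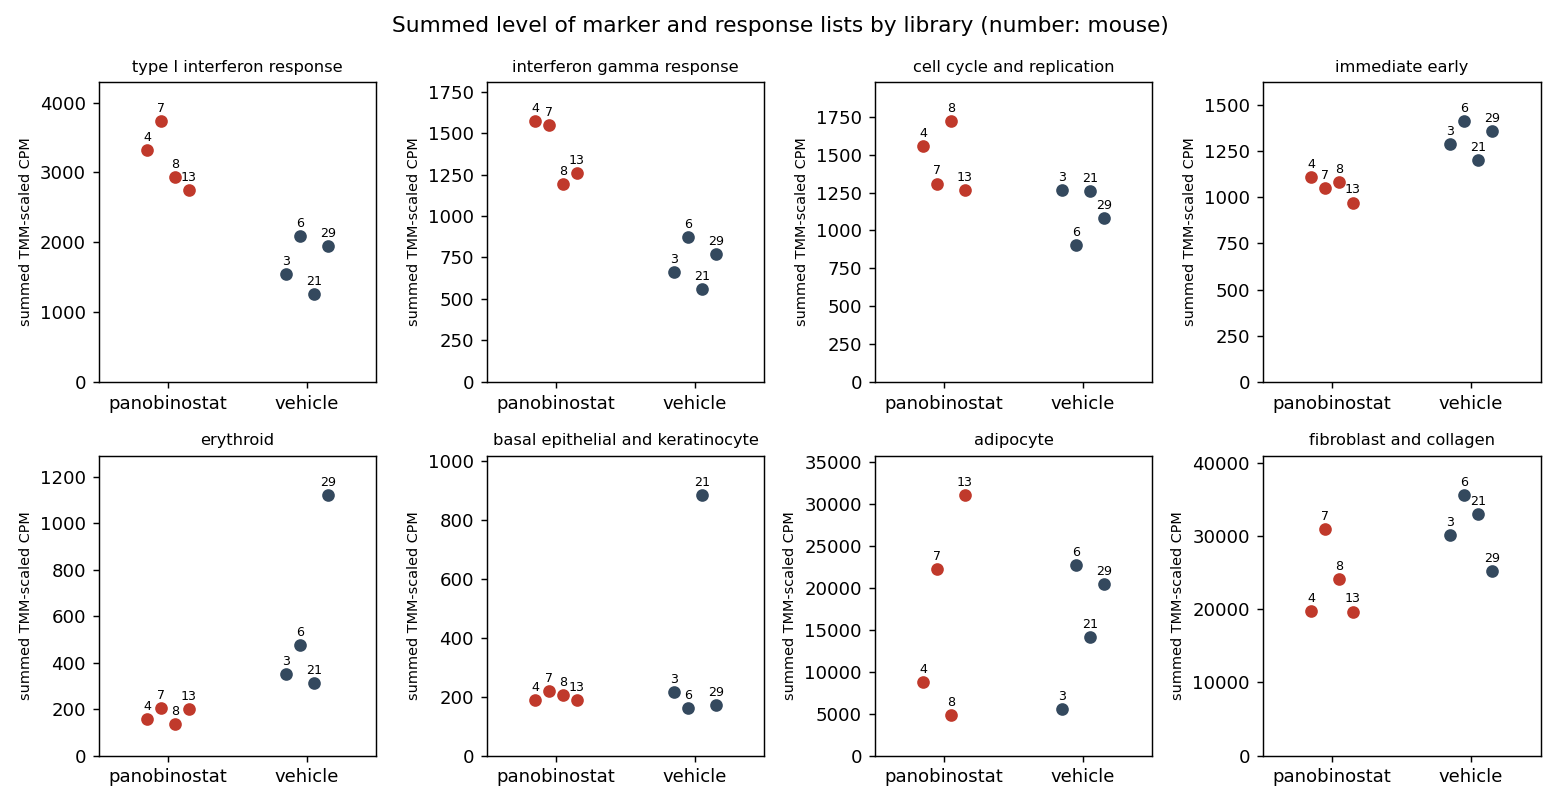
Summed TMM-scaled CPM of 8 gene lists in each panobinostat mouse (red) and each vehicle mouse (dark blue), with the mouse number above each point and axes from 0. The interferon lists separate the groups without overlap, and vehicle mice 29 and 21 stand apart for erythroid and keratinocyte genes.

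Genes of red cells, neutrophils and platelets are read here with the blood content of the tumours in view. All 5 erythroid genes tested were lower in every panobinostat tumour than in any vehicle tumour, which held for 1.87% of all genes. Their median log2 change was -1.69, and edgeR called none of them. DESeq2 called 4 of them lower, against 50 of all 15610 genes. Hbb-b2, a beta globin, stood at 26.3, 36.6, 25.4 and 37.0 CPM in panobinostat and at 71.5, 92.0, 58.8 and 197 CPM in vehicle tumours (log2 change -1.74, SE 0.36, adjusted p = 0.0614). Without vehicle mouse 29, the highest, the list's median was -1.15. Globin copies are near-identical, so their single values are uncertain.

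Neutrophil genes had a median of -0.40 over 12, with none called by edgeR and 2 called lower by DESeq2 (50 of all 15610 genes). Of the 12, 7 were negative and 5 positive. At an unadjusted edgeR p under 0.05, 5 were lower and 2 higher. The summed level overlapped between groups, at 244 to 397 CPM with panobinostat and 294 to 423 CPM with vehicle. S100a8, a calprotectin subunit, measured 19.5, 11.6, 12.9 and 14.6 CPM with panobinostat against 30.4, 28.1, 38.3 and 23.1 CPM with vehicle, without overlap (log2 change -1.03, adjusted p = 0.143). In the list of interleukin 1 and TNF genes none was called and the median was -0.14. Il1b averaged 60.3 ± 10.3 CPM with panobinostat and 98.0 ± 29.3 CPM with vehicle (log2 change -0.70, adjusted p = 0.189), and the groups did not overlap. The platelet chemokine gene Pf4 stood at 34.2, 49.5, 37.2 and 40.1 CPM with panobinostat against 9.66, 15.2, 10.6 and 26.0 CPM with vehicle (log2 change 1.37, SE 0.28, adjusted p = 0.0532). The median of the 5 platelet genes tested was -0.10, with none called by edgeR and 1 called higher by DESeq2 (104 of all 15610 genes). Of the 5, 2 were higher in every panobinostat tumour than in any vehicle tumour (3.26% of all genes). The list's summed level did not overlap, at 109 to 140 CPM with panobinostat and 67.6 to 88.3 CPM with vehicle. Most of that sum came from Pf4 and Vwf, and Vwf is also on the endothelial list. Pf4 averaged 40.2 CPM with panobinostat and 15.4 CPM with vehicle, and Vwf 53.8 and 34.1 CPM. The other 3 tested members were negative.

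The drug's own targets and its usual response markers showed no called change. Hdac1 averaged 109 ± 10.4 CPM with panobinostat and 101 ± 18.4 CPM with vehicle, Hdac2 282 ± 53.1 and 288 ± 33.4 CPM, Hdac3 136 ± 9.44 and 136 ± 16.6 CPM, and Hdac6 17.6 ± 0.957 and 15.9 ± 1.8 CPM. Of 18 deacetylase genes none was called, and the median was 0.04. That list also holds sirtuin genes, so its median is not that of the drug's targets alone. Cdkn1a, the p21 cell cycle inhibitor that deacetylase inhibitors induce in many cultured cells, averaged 46.6 ± 2.05 and 39.1 ± 6.07 CPM in panobinostat and vehicle tumours (log2 change 0.25, SE 0.15, adjusted p = 0.75). H1f0, a linker histone gene also induced by such inhibitors in many cultured cells, averaged 102 ± 8.78 and 119 ± 14.7 CPM (log2 change -0.21, SE 0.12, adjusted p = 0.703). Transcript levels say nothing of the enzymes' activity or of histone acetylation.

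The question of whether the same genes moved when trastuzumab was present was addressed with 8 other libraries, the combination against trastuzumab alone, which share none with the comparison above but entered the same fit and its estimate of the spread. There 98 genes were called (0.628%), with 74 higher (0.474%) and 24 lower (0.154%). Of the 30 genes called with panobinostat alone, 20 were called there in the same direction, 16 higher and 4 lower. That is 66.7% of the 30 and 20.4% of the 98. Fitted on its own 8 libraries, the second comparison called 5 genes, of which Ch25h, Slfn9 and Vgf were among the 30. With 1 library left out it called 3 to 12 genes without trastuzumab mouse 15, 20 or 24 or combination mouse 11 or 22, of which 2 to 5 were among the 30, and 179 without combination mouse 16. All 30 had the same sign. Of all genes 51.5% were positive there, but the share with the same sign in both comparisons was not counted. In 25 the combination tumours lay wholly on the same side of the trastuzumab tumours, which held for 2.86% of all genes in the higher and 2.13% in the lower direction.

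Vgf stood at 35.8, 16.3, 31.5 and 15.7 CPM in combination mice 2, 11, 16 and 22 and at 2.60, 1.11, 3.14 and 3.29 CPM in trastuzumab mice 12, 15, 20 and 24 (log2 change 3.29, adjusted p = 0.00099). Ch25h stood at 34.7, 46.9, 40.7 and 75.4 CPM in combination and at 12.6, 11.2, 16.3 and 10.6 CPM in trastuzumab tumours (log2 change 1.97, adjusted p = 0.00351). Smoc2 fell there by 0.74 on the log2 scale (adjusted p = 0.036), with 32.9, 28.2, 27.5 and 30.9 CPM against 39.6, 60.9, 42.5 and 56.3 CPM. For these 3 genes the groups were again apart. Fos and Egr1 overlapped between combination and trastuzumab tumours, with log2 changes of -0.33 (adjusted p = 0.599) and -0.29 (adjusted p = 0.272). Ptprn overlapped too (0.87, adjusted p = 0.229).

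Across the lists, 11 of 32 type I interferon genes were called higher with the drug added to trastuzumab (median 1.07) and 13 of 23 interferon gamma genes (median 1.29). Of all genes 0.474% were called higher there and 0.154% lower. The immediate early median was -0.23 with 1 called lower, and the cell cycle median was 0.43 with none called. Of the 5 erythroid genes 4 were called lower (median -2.32). Fitted on those 8 libraries alone, none of the genes of either interferon list was called, and 2 of the erythroid genes were. The same held by limma voom. Without trastuzumab mouse 15, 20 or 24 or combination mouse 11 or 22, no gene of either interferon list was called, and 0 to 4 erythroid genes were. The difference between the panobinostat changes with and without trastuzumab was tested as an interaction of the drugs. By edgeR 0 genes passed and 278 had an unadjusted p under 0.05, while DESeq2 and limma voom called 0 each. For every one of the 30 genes the interaction's adjusted p was 1.00, so the smaller changes of Fos, Egr1 and Ptprn beside trastuzumab were not shown to differ. Over all 15610 genes the log2 changes of the 2 comparisons had a Pearson correlation of 0.475, given as a description across genes, which are not independent.

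**Figure D4:**
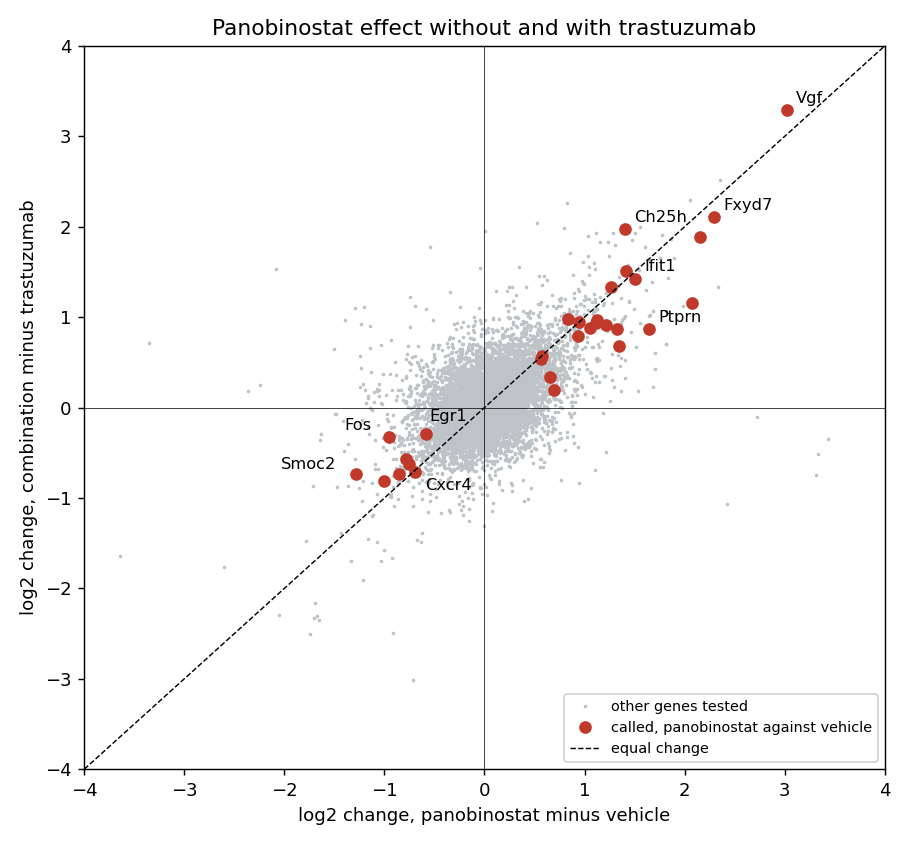
Log2 change of panobinostat over vehicle (x axis) against that of the combination over trastuzumab (y axis) for all genes tested (grey) and the 30 called genes (red), with 3 genes beyond the limits of 4 not drawn and a dashed line of equal change. All red points lie at the upper right or lower left, with the same sign in both comparisons, and Vgf lies farthest from 0 at 3.02 and 3.29.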

How the data were processed

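RNA from whole tumours was sequenced as unstranded libraries, per the labels' protocols. The deposited table held raw read counts for mouse gene symbols. The tools, per the submitters' processing notes, were CASAVA 1.8.2, TopHat2 and HTSeq, and the build was mm10. Not given in the sources used here were settings, annotation release and any removal of human reads. Of 24681 symbols, 1327 had a dot in place of a count in all 8 panobinostat-treated libraries and were left out. They held 157, 201, 236 and 2963 counts in vehicle mice 3, 6, 29 and 21. Any of them that fell with panobinostat could not be called.

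All 16 libraries entered 1 edgeR quasi-likelihood fit (edgeR 4.0.16, R 4.3.3, limma 3.58.1) with TMM scaling and filterByExpr, 1 mean per group and no covariate, with p-values adjusted by Benjamini-Hochberg over all 15610 genes and calls at 0.05. The biological coefficient of variation was 0.183. SEs are approximate: each log2 change's size over the root of its F statistic. The procedure was run on simulated counts, which were drawn without differences in tissue content between mice and cannot speak to such differences. Alternatives were other scalings, filters, DESeq2 1.42.0, limma voom, the 8 libraries alone and each library left out. Replicates are separate mice.

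Genes named are all called genes, the 10 assigned symbols next to the threshold, the members of smallest p and largest rise and fall of lists described, and Vgf, Smoc2, Hdac1, Hdac2, Hdac3, Hdac6, Cdkn1a, H1f0, Cxcl10, Erbb2, Krt8, Cd3e and Ncr1 where tested. Some genes that this rule names, 1 of them called, are not reported here. The members and lists were chosen with earlier results of these data known. Coordinates and exon overlaps come from GENCODE for mm10, promoters from RefSeq. Other called genes with exon overlaps were Stard13 (Gm42906), Ptgs1 (Gm43621), Ms4a6b (Gm19261) and Gm4070 (Gm18852 and Gm20663). Medians and counts describe lists, which were given no test.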

Additional observations from a re-analysis of the deposited data

Results flagged for a closer look

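A single library stood far from the other 3 of its group in 2 of 100 groups examined (50 genes in panobinostat and in vehicle tumours), where chance gives about 1 in 20. Slfn9 stood at 7.26 CPM in vehicle mouse 6, against 12.7 to 13.5 CPM in the other vehicle mice. The gap made up 0.868 of the group's range. Dner stood at 8.77 CPM in panobinostat mouse 4, against 5.80 to 5.90 CPM in the other panobinostat mice, a gap share of 0.965. In both genes the panobinostat values stayed above all vehicle values.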

How the results depend on the processing

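Of the 30 calls for panobinostat against vehicle, all 30 were shared with total-count scaling (46 called) and DESeq2 (154), 19 with a fit of the 8 libraries alone (58) and 3 with limma voom (3). Leaving out 1 library gave 3 to 12. The 98 calls for the combination against trastuzumab became 230 by DESeq2, 11 by limma voom, 5 from those 8 libraries alone and 3 to 179 with 1 library left out. The remaining scalings and filters kept both counts within 1.5 times, and the interaction count was 0 under every alternative run. Smoc2, Vgf and Gm5150 were called under all 7 other settings and without each library. The difference in mean total counts ran from -515449 to 38220 with 1 library left out, and its sign turned without vehicle mouse 6 or 29 (38220 and 26419). The cause of these shifts was not tested. Small differences of genes not called also changed sign with 1 library left out, over these ranges: Hdac1 -0.01 to 0.18, Hdac2 -0.15 to 0.04, Hdac3 -0.09 to 0.04, Erbb2 -0.01 to 0.34, Krt8 -0.12 to 0.01, Ncr1 -0.41 to 0.35, Pvalb -0.87 to 0.04, Fn1 -0.11 to 0.23, Ptgis -0.07 to 0.34, Klre1 -0.89 to 0.01 and Cdc6 -0.13 to 0.30. Hdac3 was 0.02 with total-count scaling and Ncr1 -0.00 by limma voom. No paired analysis was possible because mouse numbers are not shared between groups.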

Other observations

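Several other cell programmes held no called gene. None of 29 oxidative phosphorylation genes was called (median log2 change -0.09), nor of 25 hypoxia and glycolysis genes (0.02), 27 heat shock and unfolded protein genes (0.03), 21 cell cycle inhibitor genes (0.01) or 17 BCL2 family genes (-0.03). Chromatin genes had medians of 0.03 over 24 genes of deacetylase complexes, 0.02 over 22 acetyltransferase and reader genes and -0.14 over 23 histone genes, and none was called.

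Among growth factor pathways, none of 24 TGF-beta genes (median -0.10), 28 Wnt genes (-0.09) or 16 Notch genes (-0.06) was called. Mmp14, a membrane-bound collagenase, averaged 216 ± 10.2 CPM with panobinostat and 290.0 ± 30.5 CPM with vehicle (log2 change -0.42, adjusted p = 0.159). Vessel genes included Vwf, the clotting factor carrier of endothelium and platelets, at 53.8 ± 5.63 and 34.1 ± 9.09 CPM (0.66, adjusted p = 0.192), and Apln, a peptide of growing vessels, at 6.96 ± 1.34 and 11.7 ± 1.16 CPM (-0.75, adjusted p = 0.128), in panobinostat and vehicle tumours. Keratinocyte genes had a median of -0.81 over 11 genes, which was -0.02 without vehicle mouse 21.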
